A study of Mus musculus with 6 samples.

Results

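The adrenergic receptors carry the signal of noradrenaline and adrenaline into fat cells, vessels and nerve endings of adipose tissue. The genes of 8 of them were examined, the β receptors *Adrb1* and *Adrb3*, the α1 receptors *Adra1a*, *Adra1b* and *Adra1d*, and the α2 receptors *Adra2a*, *Adra2b* and *Adra2c*. They were taken by symbol as a receptor family, with earlier results of these data known, from the 55401 genes that were counted in RNA of mouse subcutaneous white adipose tissue (scWAT). The comparison was between 3 control libraries (YT-FF) and 3 libraries labelled YT-AKO, each from male mice 8 weeks old. YT-FF mice carried floxed *Yap* and *Taz* alleles without Cre recombinase and are called WT in the labels. YT-AKO mice had the same floxed alleles plus Cre driven by *Adipoq*, a gene of mature adipocytes, so vessels, nerves, progenitors and immune cells of the depot were not targeted. RNA was taken from whole tissue. A transcript of adipocytes can therefore be lower because there were fewer adipocytes or because each held less of it, and these cannot be told apart in the counts.

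The β receptors couple to the G protein Gs, which activates adenylyl cyclase, raises cAMP and switches on protein kinase A, the kinase that starts lipolysis and, in thermogenic fat, the induction of *Ucp1*. The α2 receptors couple to Gi, which lowers cAMP and restrains lipolysis, and they also act on sympathetic nerve endings to limit noradrenaline release. The α1 receptors couple to Gq, which activates phospholipase C and raises intracellular calcium.

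Counts are fragments per gene as the authors deposited them. For comparisons between groups they are given as CPM, counts relative to the library total scaled with the TMM factors of edgeR. For comparisons between genes they are given as TPM, which also divide by the summed exon length of each gene. The libraries held 17740987 to 21838493 counted fragments, and 16807 genes passed the filter on low counts. These were tested with the quasi-likelihood test of edgeR, p-values were adjusted over all of them after Benjamini and Hochberg (BH), and a gene was called where the adjusted value was under 0.05. The library labelled YT-AKO 2 stood apart from the others, with a TMM factor of 0.777 against 0.954 to 1.16 elsewhere. Over all tested genes, log2 fold change and log2 exon length were negatively related (Spearman's rho -0.376 across genes, which are not independent replicates). Of the targeted genes, *Yap1* was lower in the libraries labelled YT-AKO (log2 fold change -0.98, BH-adjusted p = 0.0179, edgeR). *Wwtr1*, which encodes TAZ, went against the label with a log2 fold change of 0.89 (BH-adjusted p = 0.0220, edgeR), so every direction given here is that between libraries as they are labelled. The counts sum all exons of a gene, so a loss of only the floxed exons need not lower them. By immunoblot, the paper reported a clear decrease of YAP and TAZ protein in scWAT of YT-AKO mice.

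The receptors belong to a single superfamily of membrane proteins, and the codons of their conserved Asp-Arg-Tyr motif are shown in capitals for each, with the 24 bases on either side. They are given because this is a conserved stretch in which near-identical copies would make reads ambiguous.

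Adrb1: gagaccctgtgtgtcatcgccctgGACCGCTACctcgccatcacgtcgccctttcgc
Adrb3: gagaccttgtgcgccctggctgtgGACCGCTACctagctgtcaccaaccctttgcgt
Adra1a: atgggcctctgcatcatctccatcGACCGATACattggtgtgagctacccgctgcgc
Adra1b: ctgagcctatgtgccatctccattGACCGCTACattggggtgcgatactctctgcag
Adra1d: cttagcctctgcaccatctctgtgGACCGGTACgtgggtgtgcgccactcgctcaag
Adra2a: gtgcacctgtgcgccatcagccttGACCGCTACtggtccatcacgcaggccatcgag
Adra2b: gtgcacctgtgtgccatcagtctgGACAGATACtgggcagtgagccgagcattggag
Adra2c: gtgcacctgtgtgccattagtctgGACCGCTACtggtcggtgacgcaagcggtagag

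These windows lie at chr19:56722810-56722866 (plus strand, *Adrb1*), chr8:27227997-27228053 (minus, *Adrb3*), chr14:66637920-66637976 (plus, *Adra1a*), chr11:43835633-43835689 (minus, *Adra1b*), chr2:131561578-131561634 (minus, *Adra1d*), chr19:54046623-54046679 (plus, *Adra2a*), chr2:127363880-127363936 (plus, *Adra2b*) and chr5:35280303-35280359 (plus, *Adra2c*) of GRCm38, from GENCODE M21 transcripts. Between members, the 57 bases were alike at 45.6% of positions for the least similar of the 28 pairs, *Adrb1* and *Adra1d*, and at 80.7% for *Adra2a* with *Adra2c* and for *Adra2b* with *Adra2c*. Words of 50 bases from the coding transcripts were searched in the transcripts of all other genes. On the same strand, 0 of the words of 6 receptors were found elsewhere, and 0.202% of those of *Adra1a* and 0.0296% of those of *Adra1b* were. Overlap with genes on the opposite strand is larger. The exons of *Adrb3* share 24.9% of their bases with *Gm45470* on the opposite strand, and those of *Adra1d* share 7.74% with *Gm14285*. Fragments were counted without strand and dropped where genes overlap, so the levels of these receptors rest on their remaining exon bases, and antisense reads there cannot be told apart from their own.

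The β3 receptor, the main β receptor of rodent adipocytes, was by far the most abundant member. In TPM, a level per length, *Adrb3* (ENSMUSG00000031489, chromosome 8, 27225776 to 27250616 of mm10) stood at 586, 575 and 453 in the controls, against 339, 307 and 596 in the libraries labelled YT-AKO. It ranked 198 among the 28065 genes with a TPM above 0 in YT-FF and 344 among 26344 in YT-AKO. *Adrb3* made up 90.7% ± 1.36 (SD, n = 3) of the summed TPM of the 8 receptors in YT-FF and 90.4% ± 3.39 in YT-AKO, and the lowest library, YT-AKO 1, still held 87.1%. Next came the α1 receptor gene *Adra1d* with 26.0 ± 2.44 TPM in YT-FF, then *Adrb1* with 16.9 ± 0.998, *Adra1a* with 5.65 ± 1.04, *Adra2a* with 3.09 ± 1.28, *Adra1b* with 2.36 ± 0.456, *Adra2c* with 0.378 ± 0.303 and *Adra2b* with 0.205 ± 0.0634 TPM (mean ± SD, n = 3).

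In this order of YT-FF levels, the ranges over the 3 libraries were separate between each neighbouring pair down to *Adra1a* and *Adra2a*, where the lowest *Adra1a* value, 4.50 TPM, lay just above the highest *Adra2a* value, 4.41 TPM. *Adra2a* and *Adra1b* overlapped, as did *Adra2c* and *Adra2b*. In the libraries labelled YT-AKO the mean levels were 414 ± 158 TPM for *Adrb3*, 16.8 ± 12.3 for *Adrb1*, 14.3 ± 7.49 for *Adra1d*, 8.31 ± 2.86 for *Adra1a*, 2.26 ± 0.376 for *Adra2a*, 1.99 ± 1.33 for *Adra1b*, 0.869 ± 0.348 for *Adra2c* and 0.273 ± 0.0139 for *Adra2b* (mean ± SD, n = 3). There *Adrb1*, *Adra1d* and *Adra1a* formed a run of overlapping neighbours, and *Adra2a* overlapped *Adra1b*, which overlapped *Adra2c*.

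**Figure D1:**
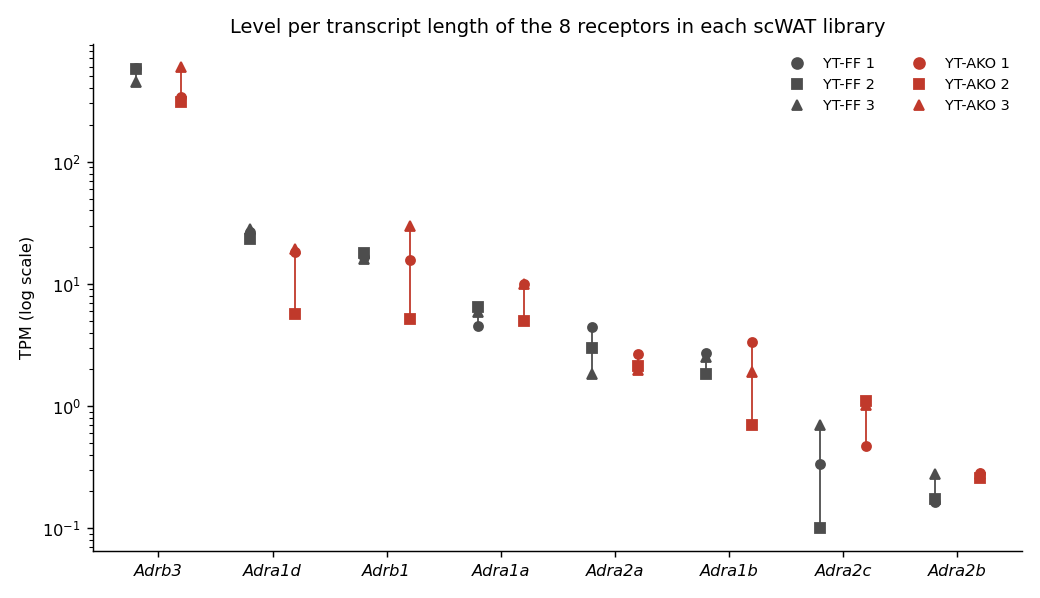
Level of the 8 receptor genes in TPM on a log axis, in the order of their YT-FF means, with one point per library (grey YT-FF, red YT-AKO, symbols for replicates 1 to 3) and a line from the lowest to the highest library. *Adrb3* lies above 300 TPM in all 6 libraries and no other receptor passes 29.6 TPM in any.

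Of the 7 receptors that passed the filter, 1 was called higher in the libraries labelled YT-AKO and 0 were called lower. Of all tested genes, 12.6% were called higher (2121 genes), 9.01% lower (1515 genes) and 21.6% in either direction. With library totals alone, which moved the median log2 fold change of all tested genes from -0.02 to -0.34, the split was 1137 higher and 2828 lower, and with each library corrected for gene length it was 1668 and 722. The count called lower was 0 with DESeq2 and limma-voom as well, and 0 receptors were lower at an unadjusted p under 0.05. The median log2 fold change of the 7 was 0.30, against -0.02 for all genes tested, and 6 of the 7 had a positive value, against 49.0% of all tested genes. With library totals alone the median of the 7 was 0.015 and 4 were positive, against 33.8% of all tested genes. In CPM, the groups did not overlap for 1 of the 7, against 51.5% of all tested genes.

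The member called was *Adra1a*, the gene of the α1A receptor (ENSMUSG00000045875, chromosome 14, 66635251 to 66771168). The 3 YT-FF libraries gave 240, 328 and 279 counts, and those labelled YT-AKO gave 537, 423 and 540. These are 10.2, 14.4 and 14.4 CPM in YT-FF and 31.2, 24.9 and 31.9 CPM in YT-AKO, so the lowest YT-AKO library lay well above the highest YT-FF library. The mean rose from 13.0 ± 2.40 to 29.4 ± 3.84 CPM (SD, n = 3). The fitted change was 1.18 on the log2 scale, with a standard error of 0.205 and a 95% confidence interval of 0.70 to 1.65 (BH-adjusted p = 0.0183, edgeR). The two-sided exact permutation test of CPM gave p = 0.1, the smallest that 3 libraries against 3 allow.

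Its size depended on the scale. In TPM, *Adra1a* was at 4.50, 6.52 and 5.94 in YT-FF and at 9.97, 5.01 and 9.94 in YT-AKO, and YT-AKO 2 fell among the YT-FF libraries (exact permutation test, p = 0.3). *Adra1a* has the longest exons of the 8, 8728 bp, and with each library corrected for gene length its log2 fold change was 1.55 (BH-adjusted p = 0.0158, edgeR). The call did not survive the loss of either of 2 control libraries. Without YT-FF 1 the log2 fold change was 1.03 (BH-adjusted p = 0.110, edgeR) and without YT-FF 2 it was 1.25 (BH-adjusted p = 0.111, edgeR). In those fits 0 of all tested genes were called higher in edgeR, while 4665 and 4507 genes had an unadjusted p under 0.05 in either direction.

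**Figure D2:**
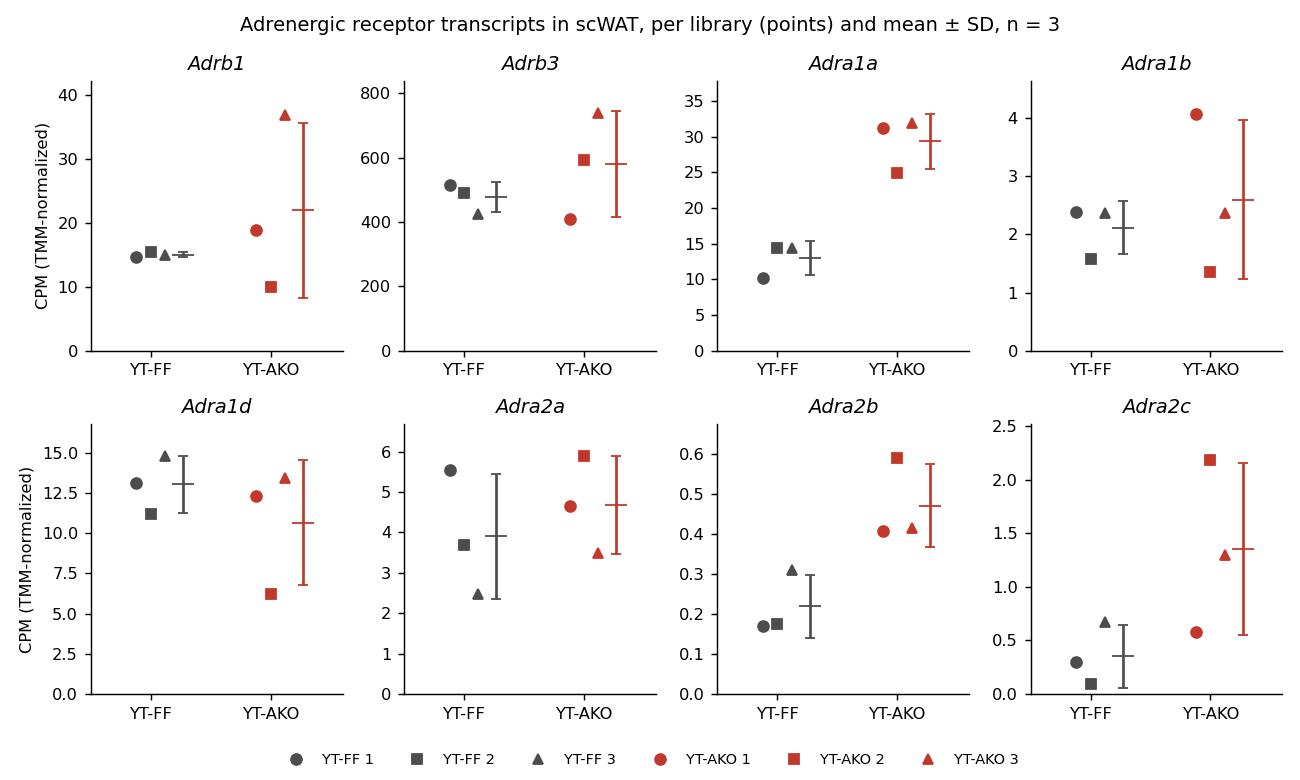
TMM-normalized CPM of each receptor gene in the 3 YT-FF (grey) and 3 YT-AKO (red) libraries, 1 panel per gene with its own axis from 0, and the mean ± SD (n = 3) beside the points. *Adra1a* is the tested receptor whose 3 YT-AKO points (24.9 to 31.9 CPM) all lie above its YT-FF points (10.2 to 14.4 CPM).

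The other α1 receptors did not share this pattern. *Adra1d*, the gene of the α1D receptor known from vascular smooth muscle (ENSMUSG00000027335, chromosome 2, 131545850 to 131562283), gave 308, 255 and 287 counts in the controls against 212, 105 and 227 in YT-AKO. In CPM these are 13.1, 11.2 and 14.8 against 12.3, 6.19 and 13.4, overlapping ranges with YT-AKO 2 at the bottom. Its log2 fold change was -0.29 (95% confidence interval -0.997 to 0.413, BH-adjusted p = 0.494, edgeR). In TPM the groups did not overlap, with 26.6, 23.3 and 28.1 in YT-FF and 18.1, 5.71 and 19.2 in YT-AKO (exact permutation test, p = 0.1). The share of all tested genes without overlap was computed in CPM only, so this separation has no background beside it. *Gnai2*, for instance, was higher in YT-AKO in CPM and lower in TPM, both without overlap. Its exons, 1899 bp, are the shortest of the 8, and with the length correction its log2 fold change was -0.58, still not called. *Adra1b*, the α1B receptor gene (ENSMUSG00000050541, chromosome 11, 43774606 to 43901210), was at 2.39, 1.58 and 2.37 CPM in YT-FF and 4.07, 1.36 and 2.36 CPM in YT-AKO, so its YT-AKO libraries spanned those of YT-FF. From 23 to 70 counts per library, its log2 fold change was 0.30 (interval -0.75 to 1.34, BH-adjusted p = 0.643, edgeR).

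The α1 receptors were also compared with each other inside each library. The ratio of *Adra1a* to *Adra1d* in TPM was 0.170, 0.280 and 0.212 in the controls against 0.551, 0.877 and 0.518 in YT-AKO. A ratio inside a library does not depend on the scaling between libraries. It was not corrected for a length trend that differs between libraries. *Adra1a* has the longest exons of the receptors and *Adra1d* the shortest (8728 and 1899 bp). With each library corrected for gene length, their log2 fold changes were 1.55 and -0.58, against 1.18 and -0.29 in the main fit. How many gene pairs would be without overlap was not computed. All 3 YT-AKO ratios were above all 3 YT-FF ratios, with a difference of 1.55 in mean log2 ratio (two-sided exact permutation test, p = 0.1). This pair was chosen after the values were seen, as was the ratio of *Adra1a* to *Adrb3*, which also did not overlap between groups (difference 0.94 in mean log2 ratio, exact permutation test, p = 0.1). Without YT-AKO 1 the second difference was 0.66.

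Neither β receptor was called. *Adrb3* gave 12067, 11182 and 8238 counts in the controls against 7069, 10029 and 12521 in YT-AKO. In CPM these are 514, 491 and 424 against 411, 591 and 740. YT-AKO 1 was the lowest and YT-AKO 3 the highest of all 6 libraries. The fitted log2 change was 0.29 (error 0.242, interval -0.27 to 0.84, BH-adjusted p = 0.399, edgeR), and with library totals alone in place of the TMM factors it was -0.047. The antisense gene *Gm45470*, which overlaps its upstream exons, gave 665, 744 and 462 counts in the controls against 232, 117 and 281 in YT-AKO (log2 fold change -1.20, BH-adjusted p = 0.0369, edgeR, and 0.0542 after correction for gene length). Its part in the *Adrb3* counts was not tested.

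*Adrb3* has transcripts whose coding sequences end differently, and the deposited count sums them. The coding bases of each form from there to its stop codon are shown in capitals after 24 shared bases, because the level of one form against the other cannot be read from these data.

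Adrb3-201: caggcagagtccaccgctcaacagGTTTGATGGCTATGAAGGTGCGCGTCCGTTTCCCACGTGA
Adrb3-202: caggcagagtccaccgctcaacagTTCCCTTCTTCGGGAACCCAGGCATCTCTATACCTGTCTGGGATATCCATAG

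The shared bases are at chr8:27227257-27227280, the coding end of Adrb3-201 at chr8:27226754-27226793 and that of Adrb3-202 at chr8:27226845-27226896 (GRCm38, minus strand, GENCODE M21). The forms share 1163 coding bases and encode 400 and 404 residues. Another transcript, Adrb3-203, has the same coding sequence as Adrb3-201.

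*Adrb1*, the β1 receptor gene that is also prominent in heart and in brown fat precursors (ENSMUSG00000035283, chromosome 19, 56722199 to 56733113), gave 345, 350 and 291 counts in the controls against 325, 170 and 624 in YT-AKO. The YT-FF libraries were nearly identical at 14.7, 15.4 and 14.98 CPM, while those labelled YT-AKO spread from 10.03 in YT-AKO 2 through 18.9 in YT-AKO 1 to 36.9 in YT-AKO 3. With this spread the log2 fold change of 0.55 (interval -0.41 to 1.50) was not called (BH-adjusted p = 0.345, edgeR). Single libraries decided its value. Without YT-AKO 2 it was 0.89 and passed the threshold (BH-adjusted p = 0.0295, edgeR), and without YT-AKO 3 it was -0.050.

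The α2 receptors, which oppose the β receptors in adipocytes, were low. *Adra2a*, the α2A gene (ENSMUSG00000033717, chromosome 19, 54044151 to 54048982, a single exon), was at 5.54, 3.69 and 2.47 CPM in YT-FF and 4.65, 5.90 and 3.49 CPM in YT-AKO, overlapping ranges from 48 to 130 counts. Its log2 fold change was 0.26 (interval -0.59 to 1.11, BH-adjusted p = 0.620, edgeR). *Adra2c* (ENSMUSG00000045318, chromosome 5, 35278319 to 35281763, a single exon) gave 7, 2 and 13 counts in the controls against 10, 37 and 22 in YT-AKO. These are 0.298, 0.0879 and 0.669 CPM against 0.581, 2.18 and 1.30 CPM, where 3 counts are worth 0.128 to 0.177 CPM per library. YT-AKO 1 lay below YT-FF 3. The fitted log2 fold change was 1.95, the largest of the 7, with an interval from 0.17 to 3.73 (BH-adjusted p = 0.0983, edgeR). Over all alternatives its BH-adjusted p ran from 0.0641, with DESeq2, to 0.260, in edgeR without YT-FF 2.

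*Adra2b* (ENSMUSG00000058620, chromosome 2, 127363208 to 127367221, a single exon) gave 4, 4 and 6 counts in the controls against 7, 10 and 7 in YT-AKO and did not pass the filter. In CPM these are 0.170, 0.176 and 0.309 against 0.407, 0.590 and 0.414, without overlap (exact permutation test, p = 0.1, the smallest possible), while in TPM the ranges overlapped (exact permutation test, p = 0.2). The floor of 3 counts covers counting error only, since fragments carry no molecular identifiers, while the intervals of the fold changes also hold the spread between libraries.

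**Figure D3:**
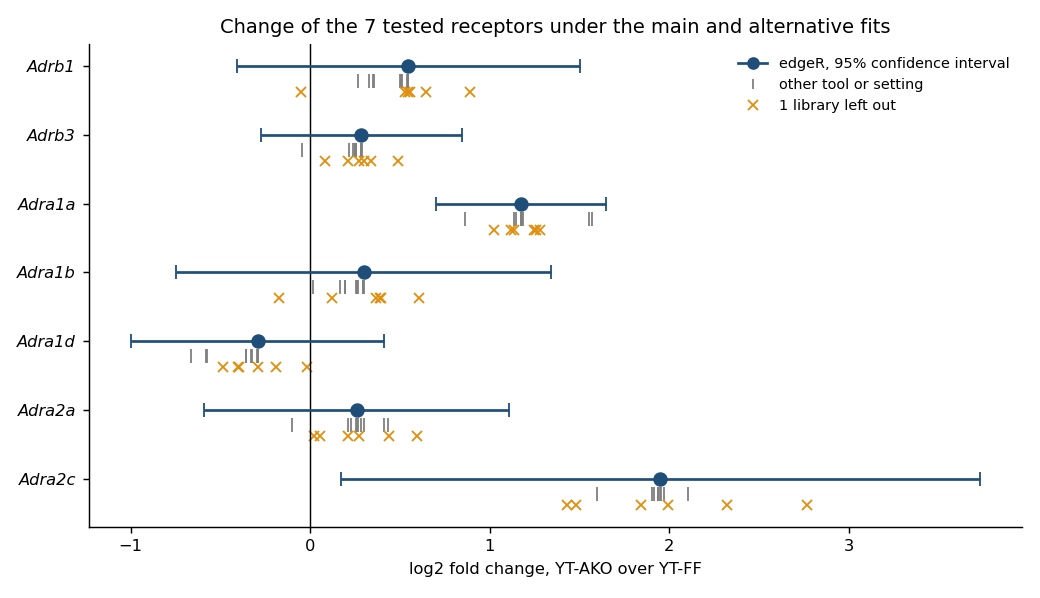
Log2 fold change (YT-AKO over YT-FF) of the 7 tested receptors from edgeR with its 95% confidence interval (blue), other tools and settings (grey ticks) and fits without 1 library (orange crosses). The interval of *Adra1a* (0.70 to 1.65) and that of *Adra2c* (0.17 to 3.73) lie above 0, and those of the other 5 cross it.

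The balance of the receptor classes was compared within each library. The summed β receptors exceeded the summed α2 receptors by 123, 180 and 166 times in the controls, against 103, 89.0 and 191 times in YT-AKO, in TPM. The groups overlapped, with a difference of -0.35 in mean log2 ratio (two-sided exact permutation test, p = 0.4). The β to α1 ratio ran from 12.8 to 18.7 in YT-FF and from 11.3 to 27.3 in YT-AKO (difference 0.18, exact permutation test, p = 0.8). For α1 to α2 it ran from 6.89 to 12.9 and from 3.26 to 9.50 (difference -0.53, exact permutation test, p = 0.4). *Adrb3* to *Adra2a*, an activating and an inhibiting receptor of adipocytes, was at 133, 191 and 246 in YT-FF and at 126, 144 and 304 in YT-AKO (difference -0.06, exact permutation test, p = 0.9). *Adrb3* to *Adrb1*, also chosen after the values were seen, was between 28.4 and 35.0 in YT-FF and at 21.8, 59.1 and 20.1 in YT-AKO (difference -0.10, exact permutation test, p = 1). Raw p-values are given for these 7 ratios, and with a smallest possible p of 0.1 none could pass an adjustment.

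**Figure D4:**
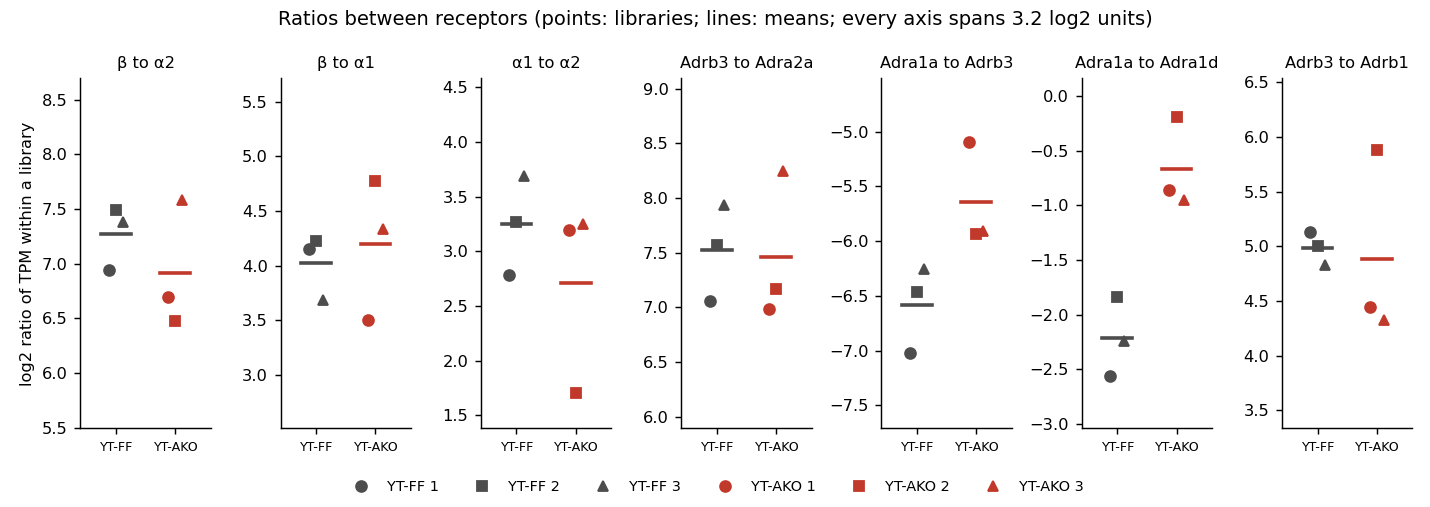
Log2 ratios of TPM between receptor classes and receptors within each of the 3 YT-FF (grey) and 3 YT-AKO (red) libraries, with lines at the group means and axes of equal span. *Adra1a* to *Adrb3* and *Adra1a* to *Adra1d* are separate between the groups, with mean differences of 0.94 and 1.55, and the other 5 ratios overlap.

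Markers of several cell types differed between the groups, and their summed CPM is set beside the receptors. The 12 adipocyte markers summed to 25504 to 34516 CPM in YT-FF and 49087 to 93965 CPM in YT-AKO, and 4 of them were called higher. *Cfd*, with 5341 to 5902 and 18705 to 48819 CPM, and *Fabp4*, with 4072 to 7199 and 9159 to 20229 CPM, made up most of the difference. The other 10 summed to 15790 to 21977 and 21223 to 24917 CPM, overlapping ranges, and 8 of them were not called. The geometric mean of all 12 in TPM, 1771 to 2232 in YT-FF and 1541 to 2270 in YT-AKO, overlapped between the groups. Relative to it, *Adra1a* did not separate the groups (difference 0.57 in mean log2 ratio, exact permutation test, p = 0.2), while relative to *Adipoq* alone it did (0.74, exact permutation test, p = 0.1). *Adrb3* differed by -0.37 (exact permutation test, p = 0.2) with overlapping libraries. *Adra1d* was lower in all 3 YT-AKO libraries than in any YT-FF library, by -0.98 (exact permutation test, p = 0.1) or, without YT-AKO 2, by -0.54, the only 1 of the 8 without overlap. How many of all genes would separate on this measure was not computed. The other 5 lay between -0.44 for *Adra1b* and 1.57 for *Adra2c*, with overlapping groups.

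The 8 skeletal muscle markers summed to 158 to 495 CPM in YT-FF and 262 to 3581 CPM in YT-AKO, the highest in YT-AKO 1. Without that library the log2 fold change of *Adra1a* was 1.14 (BH-adjusted p = 0.0281, edgeR), and that of *Adra1b*, whose highest value was in YT-AKO 1, turned to -0.17. The 10 smooth muscle and pericyte markers, cells in which α1 receptors act, summed to 561 to 638 and 573 to 712 CPM. Macrophage markers (8) summed to 1107 to 1251 and 1672 to 2369 CPM, B cell markers (6) to 963 to 1113 and 570 to 926 CPM, and brown and beige fat markers (10) to 78.6 to 97.0 and 657 to 2145 CPM. Ranges of the fibroblast, endothelial, Schwann cell, T cell and epithelial lists overlapped between the groups. The part of these cells in the receptor values was not tested.

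The other genes of adrenergic signalling are given from 11 lists of 121 genes, of which 113 were tested, 14 were called higher and 11 lower, with a median log2 fold change of -0.04 (edgeR's quasi-likelihood test). These shares, set against 12.6% higher and 9.01% lower among all tested genes, are near the background. With library totals alone the counts were 6 higher and 26 lower, with DESeq2 16 and 22, and with the length correction 14 and 5. Transcripts of the ligand side were scarcely seen. *Th* and *Dbh*, which encode enzymes that make noradrenaline in sympathetic neurons, had 0 counts in every library, where 3 counts would be 0.128 to 0.177 CPM, and the 10 sympathetic neuron markers summed to 8.96 to 10.2 CPM in YT-FF and 8.43 to 14.4 CPM in YT-AKO. Of the 3 tested genes of synthesis and storage 0 were called in edgeR, and 0 had an unadjusted p under 0.05. Transcripts without counts in either group cannot show a difference, and nerve fibres were not measured here, so noradrenaline supply was not tested. By whole-mount staining for TH, the protein encoded by *Th*, the paper reported a denser sympathetic nerve supply in scWAT of YT-AKO mice.

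**Figure D5:**
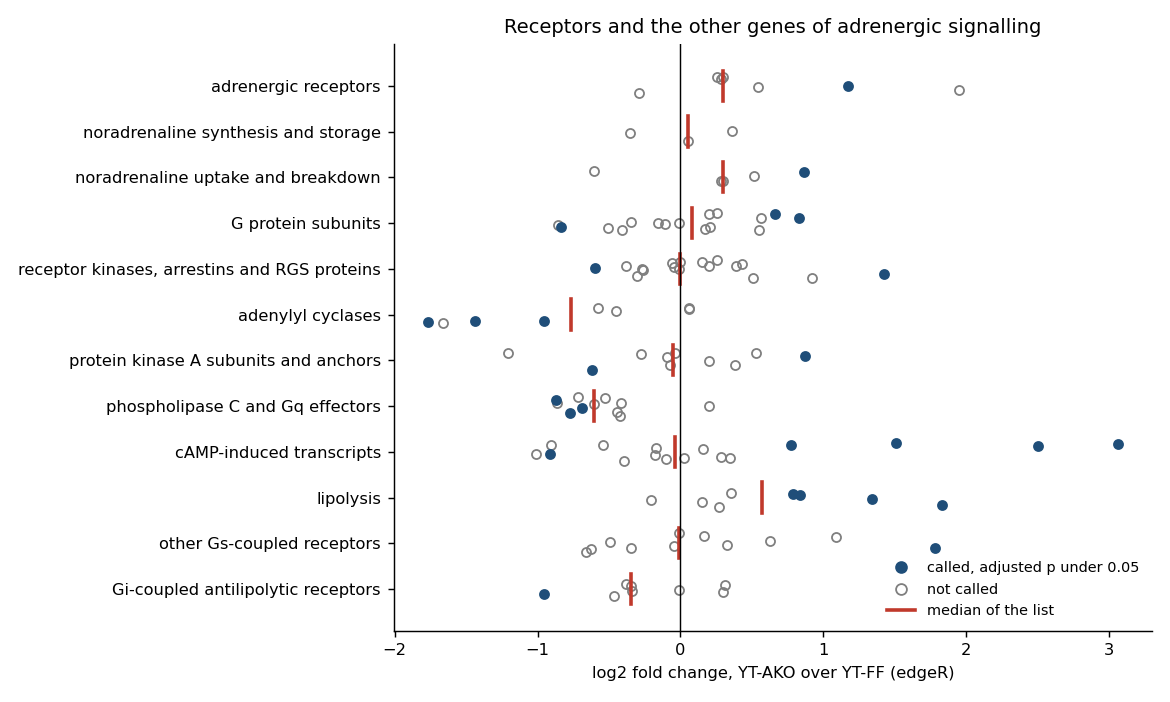
Log2 fold change (edgeR, YT-AKO over YT-FF) of every tested gene of the receptor list and of 11 lists of adrenergic signalling, filled where the adjusted p is under 0.05, with a red line at the median of each list. The medians lie between -0.77 for the adenylyl cyclases and 0.57 for lipolysis, and the receptors at 0.30.

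Among the G proteins, 2 of 16 tested genes were called higher and 1 lower. The Gq subunit *Gnaq*, through which α1 receptors signal, was at 69.0, 84.1 and 76.4 CPM in YT-FF and 46.8, 33.2 and 48.8 CPM in YT-AKO (log2 fold change -0.83, BH-adjusted p = 0.0268, edgeR). The Gs subunit *Gnas* was between 68.2 and 84.6 CPM in YT-FF and at 99.6, 19.2 and 108 CPM in YT-AKO (log2 fold change -0.01). *Gnb2* and *Gng5*, of the βγ dimer, had log2 fold changes of 0.83 and 0.67. Downstream of Gq, 3 of 11 tested genes were called lower and 0 higher, namely *Itpr3*, an inositol trisphosphate receptor (-0.87), the kinase *Prkca* (-0.69) and the phospholipase *Plcb2* (-0.78), and 10 of 11 had a negative log2 fold change, with a median of -0.61. These genes have long exons, 5544 to 18319 bp in sum. Each library was therefore also corrected for gene length, a setting added for these lists after the values were seen. With it, 0 of the 11 were called in edgeR, 3 had an unadjusted p under 0.05 and the median was -0.24. The 3 were *Plcb2* (-0.49) and *Prkce* (-0.59), which were lower, and *Plcb3*, which was higher (0.47). *Itpr3* (-0.45) and *Prkca* (-0.28) were not among them under this correction. With that correction *Gnaq* was at -0.61 (BH-adjusted p = 0.0415, edgeR), *Gng5* remained called and *Gnb2* did not. *Gnao1*, not called in the main fit, was then called higher (1.02, BH-adjusted p = 0.0460, edgeR). Scaling by library totals alone put the median of the 11 at -0.98 and that of the adenylyl cyclases at -1.07.

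Of the 8 tested adenylyl cyclases, which make cAMP, 3 were called lower, *Adcy5* (-0.96), *Adcy7* (-1.44) and *Adcy1* (-1.77, from under 3 CPM), and 0 higher. *Adcy3*, a cyclase of adipocytes, was at 25.9, 31.1 and 26.6 CPM in YT-FF and at 23.8, 4.66 and 32.7 CPM in YT-AKO. YT-AKO 2 was by far the lowest, and YT-AKO 1 lay slightly below the YT-FF libraries. Corrected for length, the cyclases had a median of -0.50, with *Adcy5* and *Adcy7* called lower and *Adcy1* not. Of the 10 tested protein kinase A genes, 1 was called higher, the regulatory subunit *Prkar1b* (0.87), and 1 lower, the catalytic subunit *Prkacb* (-0.62). After the length correction neither was called, and 2 others were called higher, *Akap1* (0.62) and *Opa1* (0.54). Among 17 receptor kinases, arrestins and RGS proteins, which switch receptors and G proteins off, *Rgs2* was called higher, from 30.3 to 39.0 CPM in YT-FF to 84.1 to 102 CPM in YT-AKO (log2 fold change 1.43, BH-adjusted p = 0.0146, edgeR). *Grk6* was called lower (-0.60). The receptor kinase *Grk2* and the arrestins *Arrb1* and *Arrb2* were not called. After the length correction *Rgs2* and *Grk6* remained called, and *Grk5* (0.81) and *Rgs3* (0.61) were called higher.

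The end points of the β receptor pathway did not share 1 direction. Of 8 tested lipolysis genes, 4 were called higher and 0 lower, with a median log2 fold change of 0.57. They were *Pnpla2*, adipose triglyceride lipase (0.79), *Lipe*, hormone-sensitive lipase (0.84), *Fabp4*, a fatty acid carrier (1.34), and *G0s2*, an inhibitor of adipose triglyceride lipase (1.83). Of these, 3 are also in the adipocyte marker list. After the length correction *Lipe* and *G0s2* were called, and with library totals alone *G0s2* was. Of 16 transcripts induced by cAMP, 4 were called higher and 1 lower, with a median of -0.04. *Dio2*, which activates thyroid hormone, was at 0.938, 3.69 and 3.81 CPM in YT-FF and 31.5, 15.9 and 22.9 CPM in YT-AKO (log2 fold change 3.06), and *Gadd45g* (2.50) and *Atf3* (1.51) were called higher too. The remaining gene called higher was *Crem*, which was also called after the length correction (log2 fold change 1.01, BH-adjusted p = 0.0306, edgeR). The phosphodiesterase *Pde4b*, which breaks down cAMP, was called lower (-0.91), though not after the length correction (-0.46). *Nr4a1* and *Sik1*, rapid responders to cAMP in many cells, had log2 fold changes of -0.90 and -1.01 and were not called.

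Other receptors that converge on adenylyl cyclase gave 1 call in each class. Of 11 tested Gs-coupled receptors, the secretin receptor *Sctr* was called higher, from 13.4 to 14.2 CPM in YT-FF to 34.2 to 70.7 CPM in YT-AKO (log2 fold change 1.78, BH-adjusted p = 0.0177, edgeR). Of 8 Gi-coupled antilipolytic receptors, the adenosine receptor *Adora1* was called lower, from 77.3 to 97.4 CPM to 33.5 to 49.0 CPM (log2 fold change -0.95, BH-adjusted p = 0.0230, edgeR). *Ptger3* and *Hcar1* had log2 fold changes of -0.35 and -0.47 and were not called.

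The genes whose log2 CPM ran most like each receptor over the 6 libraries were found among 12904 (for *Adra2c* 12905) other tested protein-coding genes with a mean of at least 1 TPM, as a description over 6 points that share depth and scaling. *Adra1a* was closest to *Stab1* (Pearson's r = 0.996), *Cmtm4* (0.991) and *Sdc1* (0.991), and 186 genes had an r over 0.95 with it. *Adra1d* was closest to *Col28a1* (0.998), *H6pd* (0.995) and *Rab5b* (0.992), with 196 such genes. *Adrb3* had 6 such genes, led by *Evc* (0.976), *Hdac10* (0.975) and *Btbd19* (0.969), and *Adrb1* had 36, led by *Hoxa10* (0.994), *Tbc1d9b* (0.993) and *Marveld1* (0.984). For *Adra1b* the closest was *Tmod1* (0.987), for *Adra2a* *Lrrc23* (0.985) and for *Adra2c* *Ctsf* (0.991).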

How the data were processed

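Libraries of scWAT RNA, 3 per genotype, were grouped by their labelled genotype. The authors mapped reads with HISAT2 (mm10) and used featureCounts 2.0.1 on GENCODE M25 exons, without strand and without fragments that map to several places or genes. What they deposited is the raw count of each gene. Of 55401 genes, 55141 were matched to a symbol. Whether the mice were littermates is not given in the sources used here, so p-values measure the spread between these samples.

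Counts were tested in R 4.3.3 with edgeR 4.0.16 (TMM, filterByExpr with a minimum count of 10 and total of 15, quasi-likelihood test without robust estimation, Benjamini-Hochberg adjustment over 16807 genes). The biological coefficient of variation was 28.8%. DESeq2 1.42.0 and limma-voom 3.58.1 were alternatives. Single values were compared with two-sided exact permutation tests.

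The receptors, pathway lists and markers were chosen by what the genes do, with earlier results of these data known, so their counts are descriptions. Named genes are the receptors, up to 3 list members with the lowest p in each direction and those that define a step, and for each tested receptor the most similar genes by correlation. *Crem* and the list genes called only after the length correction are named as well. Some genes that this rule names are not reported here.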

Additional observations from a re-analysis of the deposited data

How the results depend on the processing

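Of the 7 tested receptors, *Adra1a* was called under 13 of 16 alternatives, with a log2 fold change of 0.87 to 1.57, *Adrb1* under 1 of 16, and *Adra1d*, *Adrb3*, *Adra1b*, *Adra2a* and *Adra2c* under none of theirs. Whether the replicate numbers mark pairs is not given, and the main fit did not treat them as pairs. Same-numbered libraries had correlations of 0.126, -0.118 and -0.0893 in their deviations from the group means. Those of differently numbered libraries ran from -0.140 to 0.160. With 3 libraries per group these correlations cannot decide whether the libraries were paired. With the replicate block *Adra1a* had a log2 fold change of 1.18 and an adjusted p of 0.0604 (edgeR, Benjamini-Hochberg), so 0 receptors were called higher (1 at an unadjusted p under 0.05), and 24 of all tested genes were called higher and 9 lower. Under the stricter rule (log2 fold change beyond 1 with adjusted p below 0.01) 0 receptors were called higher. With 1 library left out, the number of receptors called higher ran from 0, without YT-FF 1 or YT-FF 2, to 2, without YT-AKO 2, and the log2 fold changes ran from 1.03 to 1.28 for *Adra1a*, -0.050 to 0.89 for *Adrb1* and -0.17 to 0.60 for *Adra1b*. In the same fits 0 to 2925 of all tested genes were called higher and 0 to 2424 lower in edgeR, and the stricter rule left 15 and 6. DESeq2 called 2392 lower. With library totals alone, *Adrb3* was at -0.047 and *Adra2a* at -0.10. In the pathway lists, library totals alone gave 6 genes higher and 26 lower, DESeq2 22 lower, and the length correction, added after the values were seen, 5 lower. As ratios of counts without length, β to α1 was -0.32 and α1 to α2 0.036 in place of 0.18 and -0.53. With 1 library left out, β to α1 ran from -0.11 to 0.53, *Adrb3* to *Adra2a* from -0.45 to 0.18, *Adrb3* to *Adrb1* from -0.60 to 0.18, and relative to adipocyte markers *Adrb1* ran from -0.70 to 0.28, *Adra1b* from -0.96 to 0.047 and *Adra2a* from -0.74 to 0.054. The cause was not tested. *Adra2b* and *Adra2c* rest on 2 to 37 counts per library, and counting error was not separated from the spread between libraries.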
